A study of Mus musculus with 6 samples.

Results

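The 7 insulin-like growth factor binding protein genes, Igfbp1 to Igfbp7, were examined in whole liver of obese, diabetes-prone NZO mice and of BKS mice. Every probe set whose platform gene symbol was one of these 7 names was taken, whatever its value, which gave 7 of 18193 measured genes and 16 of 45037 probe sets, array controls left out. Igfbp4 had 6 probe sets, Igfbp7 had 3, Igfbp3 and Igfbp5 had 2 each, and Igfbp1, Igfbp2 and Igfbp6 had 1 each. The tested strain, New Zealand Obese (NZO), had 3 arrays, and the control strain, C57BL/KS (BKS), titled wild type, had 3. All animals were males of 18 weeks on unrestricted standard chow, the age by which NZO mice have become obese and diabetic according to the design text. The strains differ across the whole genome, so strain, obesity and diabetes cannot be told apart in this comparison. Expression was deposited as log2 values that RMA computed from each group of probes against 1 gene (a probe set). RMA includes a step that brings arrays to a common distribution. The deposited bright values on NZO replicate 1 nevertheless lay lower than on the other NZO arrays, as described below. A difference of 1 on this scale is a doubling.

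IGF binding proteins are secreted proteins that carry the growth factors Igf1 and Igf2 in blood and tissue and control how much of them reaches the Igf1 receptor. The liver makes most circulating Igf1 and several of the carriers, and Igfbp1 is known as the carrier that insulin represses and fasting induces in hepatocytes through Foxo factors. Igfbp3 binds Igf1 together with the acid-labile subunit Igfals in a long-lived complex, and in rodent liver it is made mainly by cells other than hepatocytes. Igfbp7 binds insulin-like growth factors weakly and is typical of endothelial and stromal cells.

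No Igfbp probe set passed the strain comparison over all 6 arrays. In limma, 0 of the 16 had an adjusted p below 0.05, where 0.424% of all probe sets did. At an unadjusted p below 0.05 there was 1 of the 16, the Igfbp2 probe set, against 10.1% of all probe sets. The differences were positive for 8 and negative for 8, with a median of 0.00 on the log2 scale, as over all probe sets. The spread among arrays of 1 strain was large for Igfbp1, Igfbp2 and Igfbp5. The residual SD had a median of 0.55 over the 16, against 0.23 over all probe sets. That of Igfbp2 and of the brighter Igfbp5 probe set stood at the 99.5th and 99.8th percentiles. These comparisons are not matched for brightness. A strain mean of at least 6 was reached by 14 of the 16 and by 17271 of 45037 probe sets, and bright probe sets were low on NZO replicate 1, as described below.

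The sequences before the gene starts are shown for Igfbp1, Igfbp2 and Igfbp7, the 3 genes whose probe sets passed the test among 4 of the arrays, as described below. Each window holds 300 bases, most of them before the RefSeq start on the GRCm38.p6 assembly and the last 50 after it, 5′ to 3′ on the gene's own strand. Igfbp1 lies at chr11:7197537-7197836 on the plus strand, Igfbp2 at chr1:72824230-72824529 on the plus strand (the first of its 2 listed starts), and Igfbp7 at chr5:77407996-77408295 on the minus strand. Capitals mark every match, on either strand, to the motifs spelled out in the next paragraph.
Igfbp1: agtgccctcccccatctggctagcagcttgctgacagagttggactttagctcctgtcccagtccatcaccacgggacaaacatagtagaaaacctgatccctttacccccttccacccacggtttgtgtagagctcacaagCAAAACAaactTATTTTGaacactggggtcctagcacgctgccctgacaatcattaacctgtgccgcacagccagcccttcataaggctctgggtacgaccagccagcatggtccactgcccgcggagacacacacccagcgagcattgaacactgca
Igfbp2: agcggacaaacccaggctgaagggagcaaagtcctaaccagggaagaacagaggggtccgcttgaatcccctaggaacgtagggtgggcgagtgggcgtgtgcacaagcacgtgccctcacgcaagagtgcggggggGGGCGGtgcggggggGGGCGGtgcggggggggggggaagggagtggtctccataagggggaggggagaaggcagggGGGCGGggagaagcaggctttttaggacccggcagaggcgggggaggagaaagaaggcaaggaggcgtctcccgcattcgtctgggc
Igfbp7: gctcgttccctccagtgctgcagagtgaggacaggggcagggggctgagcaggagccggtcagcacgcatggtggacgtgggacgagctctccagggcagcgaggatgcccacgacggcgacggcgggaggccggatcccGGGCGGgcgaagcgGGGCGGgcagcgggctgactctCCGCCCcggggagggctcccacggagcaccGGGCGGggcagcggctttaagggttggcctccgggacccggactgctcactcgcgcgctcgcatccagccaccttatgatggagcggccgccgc

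In the Igfbp1 window, the motif CAAAACA stood at -108 to -102, counted from the gene start, and the reverse complement of the motif CAAAATA followed it at -97 to -91. These 7-base words are the arms of the insulin response element to which Foxo factors are known to bind in Igfbp1. No window of the other 6 genes held either word, and 6.28% and 4.36% of 32851 promoter windows of the same length did. GGGCGG, the core bound by Sp1, occurred 3 times before Igfbp2 and 4 times before Igfbp7, and at least once in 35.7% of all windows. TATAAA was found before Igfbp4, at -28 to -23, and before Igfbp6, at -148 to -143, and in 13.6% of windows. Neither the forkhead core GTAAACA, to which Foxo factors bind, nor the Stat5 core TTCNNNGAA was found in any window of the 7 genes, against 3.65% and 8.30% of all windows. The matches in Igfbp1 do not overlap, and a match describes letters and shows no binding. Igfbp1 and Igfbp3 are neighbours on chromosome 11, as are Igfbp2 and Igfbp5 on chromosome 1, with no other coding gene between them in RefSeq.

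The arrays differed in ways that bear on these values. Medians per array lay between 5.08 and 5.22. The arrays titled number 1 in each strain, NZO replicate 1 and BKS replicate 1, had the lowest spiked-in hybridization controls, at 8.17 and 9.29, against 11.2 and 11.5 on the other NZO arrays and 10.2 and 10.8 on the other BKS arrays. Bright probe sets were compressed on NZO replicate 1: of 698 with a mean of at least 12, 695 lay below the mean of the other 2 NZO arrays, with a median deviation of -1.01. The same median deviation of BKS replicate 1 was -0.12. The number 1 arrays are titled NZOm_1 and BKS wt_1, and no label states that they share a batch or date. The gap of 3′ over 5′ probes for beta-actin, which widens with degraded RNA, was 1.29 to 1.39 in NZO and 1.72 to 2.33 in BKS, so it moved with strain. Hepatocyte markers such as Alb and Ttr were bright on all arrays, and 8 of the 9 measured were lowest on NZO replicate 1.

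Igfbp1, the insulin-repressed carrier, differed more between arrays of 1 strain than between strains. Its log2 values were 6.82, 9.45 and 8.98 in NZO replicates 1, 2 and 3, against 10.87, 7.46 and 7.67 in BKS replicates 1, 2 and 3. BKS replicate 1 was thus the highest and NZO replicate 1 the lowest of the 6, and the remaining NZO arrays lay above the remaining BKS arrays. The means were 8.42 ± 1.40 in NZO and 8.67 ± 1.91 in BKS (SD, n = 3 each). Over all 6 arrays the difference was -0.25 (standard error 1.05, 95% confidence interval -2.74 to 2.24, limma adjusted p = 0.967). The 6 values spanned 16.6-fold, and the residual spread of Igfbp1 stood at the 99.9th percentile of all probe sets.

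The strain difference of Igfbp1 ran one way on the arrays titled number 1 and the opposite way on the others. It was -4.05 between the arrays titled number 1 and 1.65 between the other 2 NZO and 2 BKS arrays. The gap between these differences was -5.70 (standard error 0.35, limma interaction adjusted p = 0.0182). This term was fitted after the pattern had been seen, so its p describes the gap and is no independent support for it. The same term had an adjusted p below 0.05 for 1 of the 16 Igfbp probe sets and 0.122% of all probe sets, and an unadjusted p below 0.05 for 9 of the 16 and 12% of all. Each strain has 1 array on the number 1 side, which is assumed to vary like the others. Among the other 2 against 2 arrays, Igfbp1 was higher in NZO (difference 1.65, 95% confidence interval 1.17 to 2.13, limma adjusted p = 0.0120). The arrays left out held the highest and the lowest Igfbp1 value of all. This p and interval are therefore no independent support for a strain difference. The 18S ribosomal RNA control was 6.14 and 5.38 on those NZO arrays and 11.9 and 9.47 on those BKS arrays, and its part in the result was not tested. In the hepatocyte markers, BKS replicate 1 deviated from the other BKS arrays by a median of -0.01, while it lay 3.30 higher in Igfbp1.

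**Figure D1:**
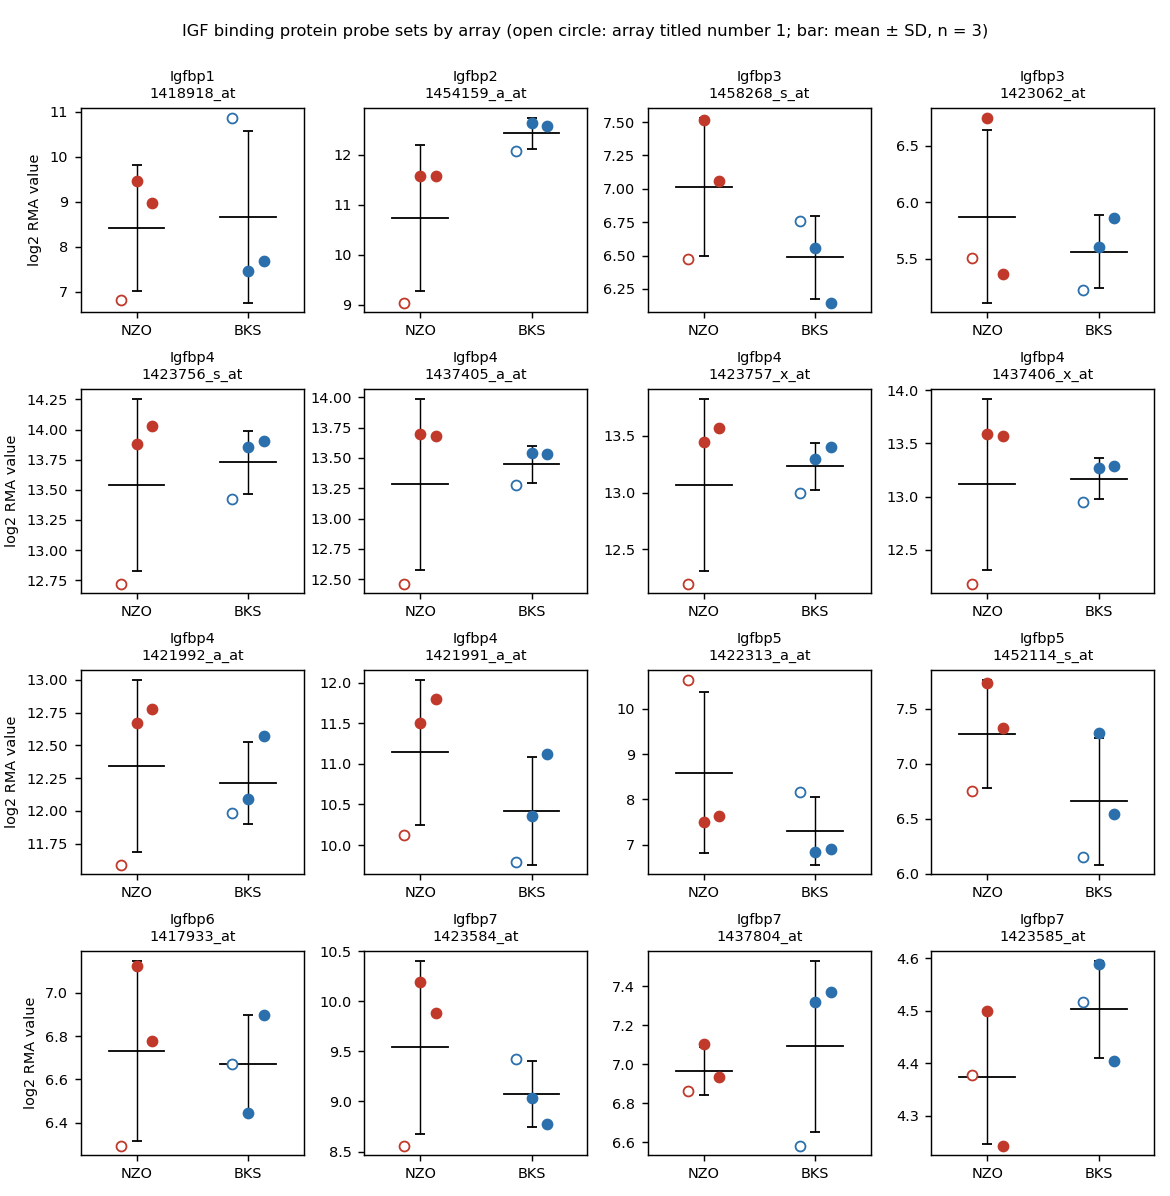
Log2 RMA value (vertical axis, its own range in each panel) of the 16 IGF binding protein probe sets on each NZO array (red, left) and BKS array (blue, right), with the mean ± SD of 3 arrays; open circles are the arrays titled number 1. Igfbp1 runs from 6.82 in NZO replicate 1 to 10.87 in BKS replicate 1, and Igfbp2 is the one panel in which all NZO arrays lie below all BKS arrays.

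Igfbp2, a carrier that hepatocytes secrete into serum, was lower in every NZO array than in any BKS array. It measured 9.04, 11.57 and 11.57 in NZO replicates 1, 2 and 3, against 12.07, 12.63 and 12.58 in BKS replicates 1, 2 and 3. Groups that separate in this direction were found for 1 of the 16 Igfbp probe sets and for 8.49% of all probe sets. The mean was 10.73 ± 1.46 in NZO and 12.43 ± 0.31 in BKS (SD, n = 3 each), a difference of -1.70 (standard error 0.67, 95% confidence interval -3.28 to -0.12) or 3.24-fold. It did not pass over all probe sets (limma adjusted p = 0.455, unadjusted p = 0.0387). The deviation of NZO replicate 1 from the other NZO arrays was -2.53 for Igfbp2, while bright probe sets as a group deviated by a median of -1.01 there.

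Without both number 1 arrays the Igfbp2 difference was -1.03 (95% confidence interval -1.38 to -0.69), and it passed (limma adjusted p = 0.0204). The arrays left out held the lowest Igfbp2 value of each strain, with NZO replicate 1 at 9.04 against 11.57 on the other NZO arrays. The narrow interval and its p are therefore no independent support for a strain difference. With the number 1 arrays as a block the difference of -1.70 was at adjusted p = 0.0588, where 2.97% of all probe sets passed and none of the 16 did. Leaving out NZO replicate 1 alone brought the difference to -0.85, and leaving out another array gave values down to -2.12. Igfbp2 was the 1 Igfbp gene lower in NZO by over 1 log2 unit both on the number 1 arrays (-3.02) and on the others.

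Igfbp4, a carrier that restrains Igf action until the protease Pappa cuts it, was measured by 6 probe sets, and none passed. The brightest gave 12.72, 13.88 and 14.03 in NZO replicates 1 to 3, against 13.42, 13.85 and 13.90 in BKS replicates 1 to 3. NZO replicate 1 was the lowest array, and the other values of both strains overlapped. The difference was -0.18 (standard error 0.35, 95% confidence interval -1.02 to 0.65, limma adjusted p = 0.920). Across the 6 probe sets the differences ran from -0.18 to 0.72. Pairs of these probe sets correlated at 0.65 to 0.99 over the 6 arrays, of which NZO replicate 1 stood apart.

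The Igfbp4 probe set with the positive end of that range, 1421991_a_at, read 10.12, 11.50 and 11.80 in NZO against 9.80, 10.36 and 11.12 in BKS. Its difference was 0.72 (standard error 0.50, limma adjusted p = 0.727). The deviation of NZO replicate 1 from the other NZO arrays ran from -1.53 to -1.13 in these 6 probe sets, and the 3 probe sets 1437405_a_at, 1423757_x_at and 1437406_x_at changed the sign of their difference without the number 1 arrays, as did the brightest. Probe sets ending in _x_at may pick up related sequences, and those ending in _s_at may be shared between genes.

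Igfbp3, the main carrier of Igf1 in serum, had 2 probe sets. The brighter read 6.48, 7.51 and 7.06 in NZO replicates 1 to 3, against 6.76, 6.55 and 6.15 in BKS replicates 1 to 3. NZO replicates 2 and 3 lay above every BKS array and NZO replicate 1 lay among them. The difference was 0.53 (standard error 0.29, 95% confidence interval -0.16 to 1.21, limma adjusted p = 0.628), or 0.93 among the other 2 against 2 arrays (adjusted p = 0.0853). The dimmer probe set read 5.51, 6.75 and 5.37 in NZO against 5.22, 5.60 and 5.86 in BKS, near the array medians, with a difference of 0.31 (adjusted p = 0.865).

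Igfbp5, a carrier bound to extracellular matrix, had 2 probe sets that ordered the arrays differently. The one listed as 1422313_a_at read 10.64, 7.50 and 7.63 in NZO replicates 1 to 3, against 8.16, 6.84 and 6.91 in BKS replicates 1 to 3. The array titled number 1 was the highest of its strain in both strains. The other, 1452114_s_at, read 6.75, 7.74 and 7.32 in NZO against 6.15, 7.28 and 6.54 in BKS, and there the number 1 arrays were the lowest. Over the 6 arrays the 2 probe sets correlated at -0.27. Beside this, 2 marker lists of other cells had summed signals that stood apart on NZO replicate 1: cholangiocyte markers at 1037, against 341 and 334 on the other NZO arrays and 315 to 374 in BKS, and lymphocyte markers at 1231, against 550 and 543 on the other NZO arrays and 496 to 555 in BKS. Both sums stood apart through the brightest probe set of 1 gene each, Epcam and Cd8a, and the other markers of these lists did not share that height. The Epcam probe set ends in _x_at and read 9.78 on NZO replicate 1. A second, dim Epcam probe set did not share the height, at 4.37 on NZO replicate 1, against 4.43 and 5.19 on the other NZO arrays. The part of these sums in the Igfbp5 value was not tested. The strain differences of the 2 Igfbp5 probe sets were both positive, at 1.29 (standard error 0.86, limma adjusted p = 0.708) and 0.61 (standard error 0.35, limma adjusted p = 0.646). The 1.29 was 0.26 without NZO replicate 1 and 0.69 without both number 1 arrays.

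Igfbp6, which prefers Igf2 to Igf1, differed little between strains. It read 6.30, 7.12 and 6.78 in NZO replicates 1 to 3, against 6.67, 6.45 and 6.90 in BKS replicates 1 to 3, with the strains overlapping. The difference was 0.06 (standard error 0.24, limma adjusted p = 0.965), and its 95% confidence interval of -0.50 to 0.62 holds differences up to that size.

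Igfbp7 had 3 probe sets, of which the brightest, 1423584_at, separated the strains apart from the number 1 arrays. It read 8.56, 10.19 and 9.88 in NZO replicates 1 to 3, against 9.43, 9.03 and 8.77 in BKS replicates 1 to 3. NZO replicate 1 was the lowest of all 6 arrays, and the other NZO arrays were the highest. The difference over 6 arrays was 0.47 (standard error 0.42, 95% confidence interval -0.54 to 1.47, limma adjusted p = 0.798). It was 1.13 when both number 1 arrays were left out (95% confidence interval 0.70 to 1.56, adjusted p = 0.0296), and between the number 1 arrays it was -0.87. The arrays left out held the lowest value of all and the highest BKS value. That p and interval are therefore no independent support for a strain difference.

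The remaining Igfbp7 probe sets did not show the same. Values of 1437804_at were 6.86, 7.10 and 6.94 in NZO and 6.58, 7.32 and 7.37 in BKS, a difference of -0.12 (limma adjusted p = 0.917), which became -0.33 when both number 1 arrays were left out (adjusted p = 0.340). The third, 1423585_at, lay below the array medians throughout, at 4.24 to 4.50 in NZO and 4.40 to 4.59 in BKS. Pairs of Igfbp7 probe sets correlated at -0.19 to 0.16 over the 6 arrays.

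Taking the arrays without the number 1 pair, 3 of the 16 Igfbp probe sets passed, those of Igfbp1, Igfbp2 and the brightest of Igfbp7, where 2.65% of all probe sets passed. For Igfbp1, that pair held the highest and the lowest of the 6 values. For Igfbp7 it held the lowest of all and the highest BKS value, and for Igfbp2 the lowest value of each strain. None of the 3 passes is therefore independent support for a strain difference. Of the 16, both NZO arrays lay above both BKS arrays in 10, below in 2 and overlapped in 4. Over all probe sets, 26.5% had both NZO arrays above and 21.6% had both below. The median difference of the 16 was 0.31 among these arrays and -0.38 between the number 1 arrays, against 0.03 and -0.06 over all probe sets. In 8 of the 16 the 2 NZO and 2 BKS arrays separated in one direction and the number 1 arrays differed in the other, as in 17.7% of all probe sets. NZO replicate 1 held the lowest of the 6 values in 9 of the 16 and in 29.2% of all probe sets. The Igfbp4 probe sets share a target and make up 6 of the 16, so these counts do not come from independent genes.

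**Figure D2:**
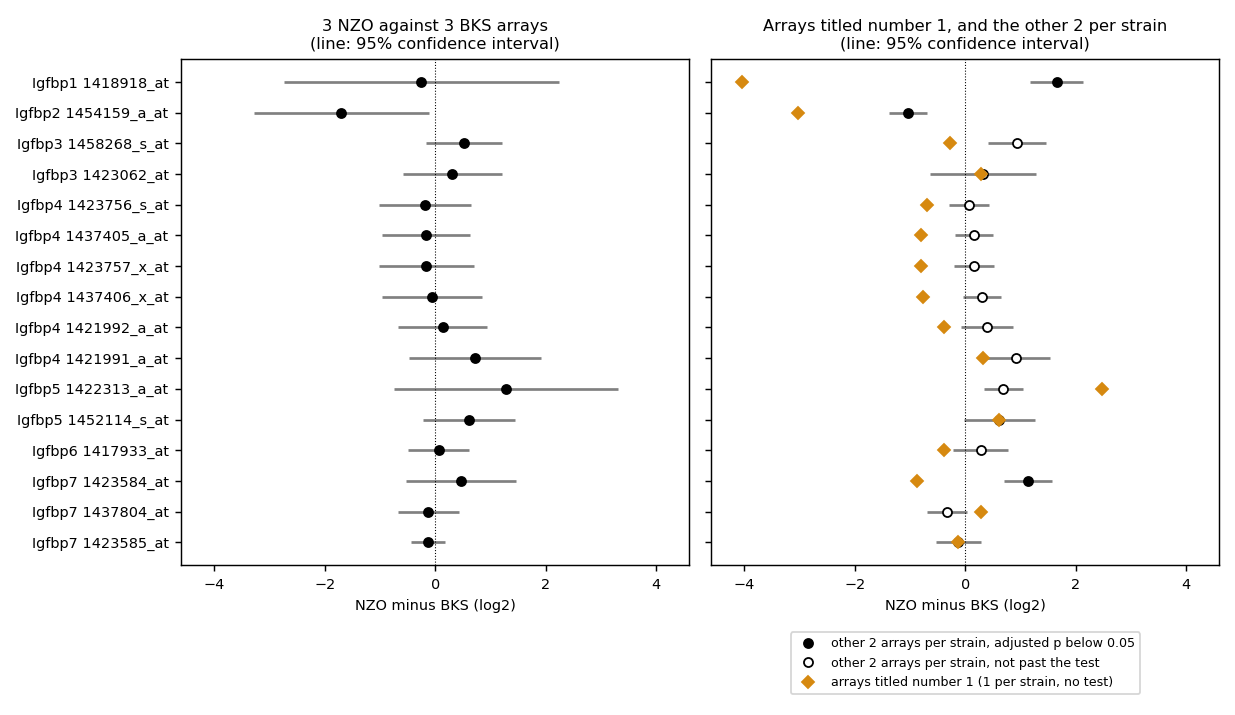
NZO minus BKS difference on the log2 scale (horizontal axis) for each Igfbp probe set, over 3 against 3 arrays (left panel) and separately for the arrays titled number 1 (orange diamonds) and the other 2 against 2 arrays (circles, right panel), with 95% confidence intervals as lines. Every interval of the left panel except that of Igfbp2 includes 0, and the Igfbp1 difference is -4.05 on the number 1 arrays and 1.65 on the others.

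Genes that control Igfbp1 were then set beside it. Of 20 measured insulin and Foxo regulators, 1 fell, none rose and 19 did not pass, against 0.324% of all genes lower and 0.242% higher. The list median was -0.39, against -0.03 over 18193 genes, and 14 of the 20 were lowest on NZO replicate 1. Without the number 1 arrays the list median was -0.24. These genes are bright: 0 of the 20 averaged below 6 in both strains. Probe sets with a strain mean of at least 6 had a median of -0.13 over the 6 arrays. The gene that fell was Foxa1, a forkhead factor that opens hepatocyte chromatin. It read 8.52, 8.03 and 8.13 in NZO against 10.07, 10.77 and 9.93 in BKS (difference -2.03, standard error 0.25, limma adjusted p = 0.0316). Foxa1 was lower in NZO both on the number 1 arrays and on the others, unlike Igfbp1. Without any 1 of BKS replicates 1, 2 and 3 or NZO replicates 2 and 3 it no longer passed (adjusted p = 0.0642, 0.108, 0.104, 0.106 and 0.165).

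Foxo1, the insulin-restrained activator of Igfbp1, gave 8.08, 8.85 and 7.92 in NZO against 9.55, 9.82 and 9.60 in BKS from its brightest probe set (difference -1.37, standard error 0.25, adjusted p = 0.108). For this probe set the adjusted p was 0.0313 with the number 1 arrays as a block and 0.0733 without them. Its other probe sets gave -0.82, -0.12 and -0.11. The one at -0.82 had limma adjusted p = 0.0711, or 0.0230 with the block and 0.0462 without the number 1 arrays. The insulin receptor Insr was at 8.72, 9.60 and 9.30 in NZO against 9.70, 10.15 and 10.13 in BKS (difference -0.79, adjusted p = 0.346, or 0.0360 with the block and 0.0896 without the number 1 arrays). Irs2, which relays the insulin signal, was at 0.37 (adjusted p = 0.632). In the brightest probe sets of Foxo1 and Insr all NZO arrays lay below all BKS arrays, as in 8.49% of all probe sets. Igfbp1 did not have this order. The Foxo1 probe set at -0.82 had it, and those at -0.12 and -0.11 overlapped between strains. The other Insr probe sets were dim and overlapped, at 0.06 and -0.06 (limma adjusted p = 0.955 and 0.940). The part of these genes in the Igfbp1 values was not tested.

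Among 15 measured Foxo and fasting targets that share this control with Igfbp1, 1 rose, none fell and 14 did not pass. Their list median was -0.06, or 0.27 without the number 1 arrays. Pdk4, which restrains pyruvate oxidation, rose to 8.36, 8.49 and 8.23 in NZO, against 6.47, 5.26 and 5.78 in BKS (difference 2.52, standard error 0.29, limma adjusted p = 0.0265). It no longer passed when BKS replicate 2, BKS replicate 3, NZO replicate 2 or NZO replicate 3 was left out (adjusted p = 0.107, 0.149, 0.0919 and 0.131). G6pc, the last enzyme of glucose release, was at 11.72, 12.09 and 12.49 in NZO and 11.41, 10.81 and 10.76 in BKS (difference 1.11, adjusted p = 0.197). Without the number 1 arrays G6pc passed, at 1.504 (limma adjusted p = 0.0117). Pck1, which feeds gluconeogenesis, was at 10.54, 12.88 and 12.66 in NZO and 12.24, 12.83 and 12.68 in BKS (difference -0.56, adjusted p = 0.833), with NZO replicate 1 lowest as in Igfbp1. A second bright Pck1 probe set had the opposite sign, at 0.49 (adjusted p = 0.901). None of 9 insulin-induced hepatic genes passed. An unadjusted limma p below 0.05 was found for 2, against 10.1% of all probe sets: Me1 (0.89, adjusted p = 0.195) and Elovl6 (0.95, adjusted p = 0.349).

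**Figure D3:**
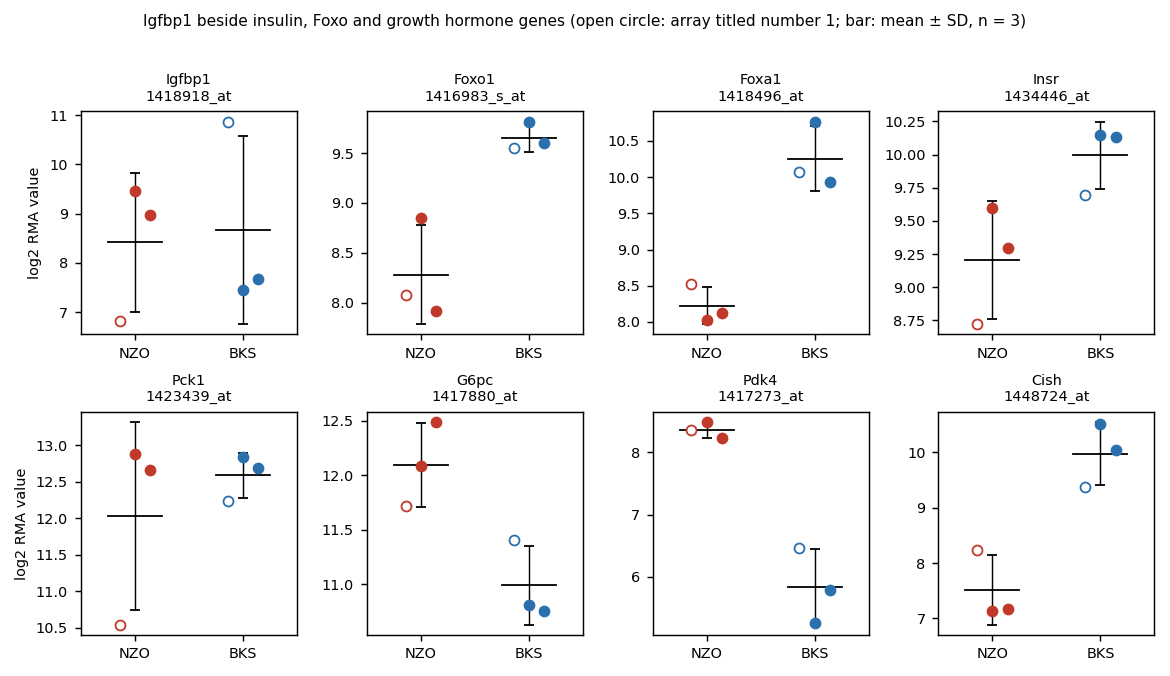
Log2 RMA value (vertical axis, its own range in each panel) of Igfbp1 and 7 genes of insulin, Foxo and growth hormone action on the NZO (red, left) and BKS (blue, right) arrays, with the mean ± SD of 3 arrays and open circles for the arrays titled number 1. Foxo1, Foxa1, Insr and Cish have all NZO arrays below all BKS arrays and G6pc and Pdk4 have them above, while Igfbp1 and Pck1 overlap.

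The ligands and receptors that the carriers serve did not pass either. Of 7 measured genes 0 passed in limma, with 3 at an unadjusted p below 0.05, against 10.1% of all probe sets. The list median was 0.08, or -0.11 without the number 1 arrays. Igf1, the chief growth factor of the liver, read 12.36, 13.24 and 13.25 in NZO against 12.72, 12.90 and 13.01 in BKS (difference 0.08, standard error 0.26, adjusted p = 0.958). Other Igf1 probe sets gave 0.14, 0.04 and 0.47 (limma adjusted p = 0.939, 0.978 and 0.491). Without the number 1 arrays the last of these was at 0.75 (limma adjusted p = 0.0631). Igf2, the fetal growth factor, was at 6.79 ± 0.21 in NZO and 6.36 ± 0.16 in BKS (SD, n = 3 each; difference 0.42, limma adjusted p = 0.438). Igfals, the third partner of the Igf1 and Igfbp3 complex, was at -0.39 (adjusted p = 0.783). Igf1r was at 0.33 (adjusted p = 0.844), and Igf2r, the receptor that clears Igf2, at -1.11 (adjusted p = 0.397). A second Igf2r probe set, at 7.04 in NZO and 7.35 in BKS, gave -0.31 (limma adjusted p = 0.857). The strains overlapped in both Igf2r probe sets.

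Proteases that cut the carriers, and their inhibitors, stayed near 0 as a list. None of 21 passed in limma, none had an unadjusted p below 0.05, and the median was 0.06. In 13 of the 21 both strains averaged below 6, so little signal was there to compare. Pappa, which cleaves Igfbp4, was at 5.08 in NZO and 5.36 in BKS (difference -0.28, adjusted p = 0.663). Its inhibitor Stc2 was at -0.11 (adjusted p = 0.845). The genes with the smallest p were Prss2, a pancreatic trypsinogen, at 0.74 (adjusted p = 0.594) and the gelatinase Mmp9 at -0.27 (adjusted p = 0.601). Of 10 relatives with an IGFBP-type domain none passed, and none had an unadjusted p below 0.05. Ccn5 was at 0.22 (adjusted p = 0.809) and Ccn2 at -0.24 (adjusted p = 0.909).

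Growth hormone signalling, which drives Igf1 and Igfals in the liver, had 9 measured genes. Their median was -0.59, or -0.35 without the number 1 arrays. Of these genes 0 passed and 4 had an unadjusted limma p below 0.05, against 10.1% of all probe sets. The receptor Ghr was at 12.65 ± 0.37 in NZO and 13.10 ± 0.01 in BKS (SD, n = 3 each; difference -0.45, limma adjusted p = 0.527). Its other probe sets disagreed in sign, at -0.23 (adjusted p = 0.872) and 0.88 (adjusted p = 0.362). Cish, a feedback inhibitor that growth hormone induces, was at 8.24, 7.14 and 7.16 in NZO against 9.38, 10.51 and 10.04 in BKS (difference -2.46, standard error 0.39, adjusted p = 0.0670). With the number 1 arrays as a block Cish passed (adjusted p = 0.0227), as it did among the 2 against 2 arrays (difference -3.12, adjusted p = 0.00120). The inhibitor Socs3 was at -2.21 (adjusted p = 0.207). Among 13 measured partners of Igfbp3 and Igfbp7 at the cell surface none passed. An unadjusted limma p below 0.05 was found for 6, against 10.1% of all probe sets. The list median was -0.64, or -0.27 without the number 1 arrays, and 6 of the 13 were lowest on NZO replicate 1. The receptor Tgfbr2 had the smallest p (difference -1.98, adjusted p = 0.137, or 0.0291 once blocked and 0.0733 without the number 1 arrays), followed by Tgfbr1 (-0.75, adjusted p = 0.239).

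**Figure D4:**
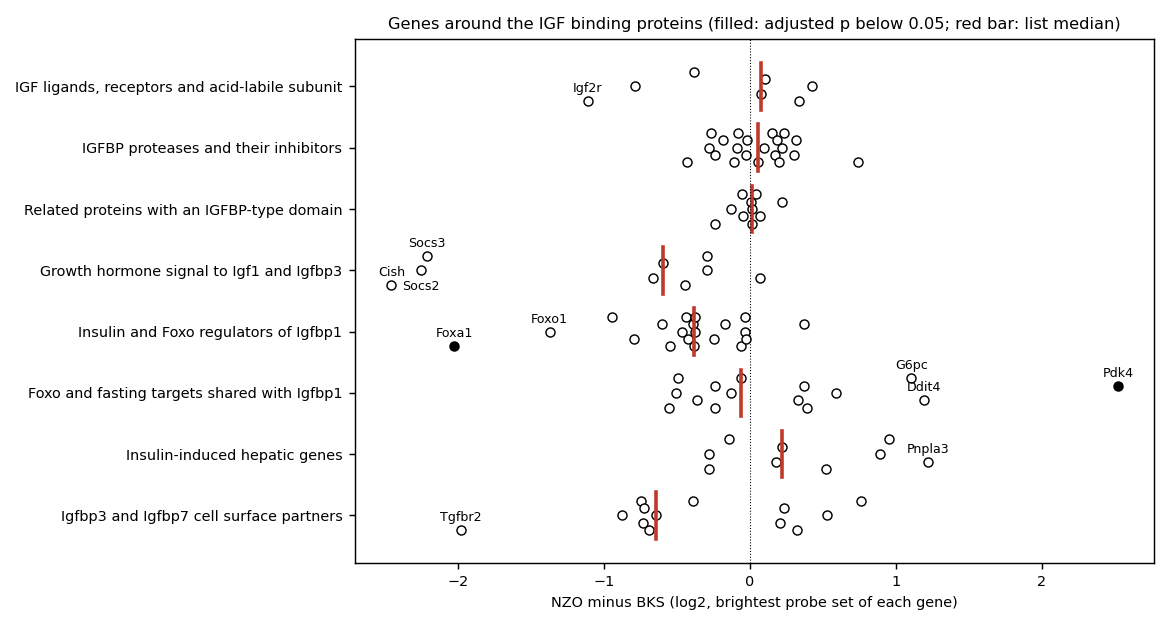
NZO minus BKS difference on the log2 scale (horizontal axis) of every measured gene in 8 lists around the IGF binding proteins, with filled circles for adjusted p below 0.05 and a red bar at each list's median. Foxa1 at -2.03 and Pdk4 at 2.52 are the 2 filled circles. The lowest list medians are -0.64 for the cell surface partners and -0.59 for the growth hormone list. Without the number 1 arrays (not drawn) these are -0.27 and -0.35.

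Markers of the cells that make the carriers were measured in the same arrays. Sinusoidal endothelial markers, listed because Igfbp7 and Igfbp3 are typical of such cells, had 14 of 15 differences above 0 and a median of 0.46. Over all genes 44.9% of differences were above 0, with a median of -0.03. In limma 0 of 15 passed, with 4 at an unadjusted p below 0.05, against 10.1% of all probe sets. All 3 NZO arrays lay above all 3 BKS arrays in 5 of the 15 and in 6.11% of all genes. The summed linear signal of the 15 ranged from 2329 to 4525 in NZO and from 1913 to 2618 in BKS. Stab2, a scavenger receptor of these cells, read 8.13, 9.06 and 8.36 in NZO against 7.47, 7.70 and 7.63 in BKS (difference 0.92, adjusted p = 0.249), and Pecam1 was at 0.71 (adjusted p = 0.140) with both strains near or below the array medians. In bulk liver, fewer cells of a type and less RNA per cell cannot be told apart, and the part of these markers in the Igfbp7 and Igfbp3 values was not tested.

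Lists of other cell types were measured as well. Beside their counts, 44.9% of all genes had a difference above 0, and 10.1% of all probe sets had an unadjusted limma p below 0.05. Stellate cell and fibroblast markers had 12 of 18 differences above 0, a median of 0.09 and none past limma's test, with 3 at an unadjusted p below 0.05, among them Col3a1 at -1.17 (adjusted p = 0.300) and Lrat at 0.56 (adjusted p = 0.420). Their summed signal ranged from 3203 to 5041 in NZO and from 3228 to 5818 in BKS. Of 13 Kupffer cell and macrophage markers 8 were above 0, with a median of 0.05 (0.52 without the number 1 arrays, against 0.67 for the endothelial list) and none past the test, and 2 had an unadjusted p below 0.05. Folr2 was at 0.43 (adjusted p = 0.356) and Cd68 at 0.77 (adjusted p = 0.468). Hepatocyte markers had a median of -0.27, with 0 of 9 past the test and 1 at an unadjusted p below 0.05, and a summed signal of 74648 on NZO replicate 1, 147992 and 146495 on the other NZO arrays, and 141667 to 144270 in BKS. Ass1 was at 1.07 (adjusted p = 0.311) from a dim probe set and Fgb at -0.48 (adjusted p = 0.599). None of 5 cholangiocyte, 6 mesothelial, 9 lymphocyte and 4 adipocyte markers passed in limma or had an unadjusted p below 0.05, with list medians of 0.14, -0.13, 0.12 and 0.18.

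Genes whose pattern over the 6 arrays was most like that of Igfbp2 and Igfbp5, the 2 Igfbp genes with the largest differences from their brightest probe sets, were sought among 9329 genes with a mean of at least 6. Nearest to Igfbp2 were the complement component C9 (Pearson r 0.9998), Rtcb (0.998) and Ube2j2 (0.998), with strain differences of -0.77, -0.57 and -0.68. C9 read 12.25, 13.41 and 13.43 in NZO against 13.62, 13.91 and 13.86 in BKS, with NZO replicate 1 lowest and every NZO array below every BKS array, as for Igfbp2. Nearest to Igfbp5 were Syp (0.994), Col9a1 (0.993) and Dennd6b (0.992), each highest on NZO replicate 1. These values describe 6 arrays, of which 1 stands apart. The genes were picked by this correlation, so an array order shared with Igfbp2 or Igfbp5 follows from the choice.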

How the data were processed

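Liver RNA was measured on 1 Affymetrix 3′ array per sample. The submitters' processing notes name RMA and Affymetrix Expression Console for the deposited log2 values, and versions are not given in the sources used here. Detection calls are not part of them, and precision is limited by how many arrays there are. Strain labels set the groups. Replicate numbers follow accession order and pair nothing. Where arrays were not separate animals, p-values measure only the spread between samples.

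Of 45101 probe sets, 64 array controls were left out, and 45037 were fitted with limma 3.58.1 in R 4.3.3 (lmFit, eBayes, NZO minus BKS, two-sided), with Benjamini-Hochberg adjustment over all of them. Symbols came from the platform annotation, which gave 1 symbol for 34945 probe sets, several for 932 and none for 9160. A gene in a list was represented by its brightest probe set. Lists were described by counts and medians. Named were all Igfbp probe sets, 12 genes of the pathway whatever their result, and per list up to 4 genes past the test or else the 2 with the smallest p. Members and lists were chosen with earlier results of these data known. The fits were tested on simulated data. Alternatives were other normalizations, filters, covariates and weights, the number 1 arrays as a block or left out, and each array left out in turn. The interaction of strain with the arrays titled number 1 was added after seeing the values. Comparisons that leave the number 1 arrays out give, for any gene, no independent support for a strain difference. Promoter windows came from RefSeq (GRCm38.p6) and matched all 7 genes. Figures were drawn with matplotlib 3.10.9.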

Additional observations from a re-analysis of the deposited data

Results flagged for a closer look

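In 8 of the 16 Igfbp probe sets, and in 17.7% of all probe sets, the 2 NZO and 2 BKS arrays not titled number 1 separated without overlap in one direction while the number 1 arrays differed in the other. The difference on the number 1 arrays minus that on the others was -5.70 for Igfbp1 (limma interaction, fitted after the values were seen, adjusted p = 0.0182). It was -2.0 for Igfbp7 1423584_at (adjusted p = 0.0798) and -1.22 for Igfbp3 1458268_s_at (adjusted p = 0.253). The Igfbp4 probe sets 1437406_x_at, 1437405_a_at, 1423757_x_at and 1421992_a_at gave -1.07, -0.964, -0.962 and -0.785 (adjusted p = 0.157, 0.187, 0.205 and 0.437). Igfbp7 1437804_at gave 0.605 (adjusted p = 0.442). Each of these gaps rests on 1 array per strain on the number 1 side. Bright probe sets were low on NZO replicate 1, and its part in the gaps of Igfbp4 was not tested. For Igfbp1, NZO replicate 1 deviated from the other NZO arrays by -2.40 and BKS replicate 1 from the other BKS arrays by 3.30.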

How the results depend on the processing

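Over 17 alternatives, 0 Igfbp probe sets passed in 16 and 3 passed in the comparison without the number 1 arrays. The filter on dim probe sets and the fit with 1 probe set per gene leave some of the 16 out. No paired analysis was possible because the strains share 1 number in the titles. Counts of all probe sets past the test were 191 as reported, 1336 with the number 1 arrays as a block, 1192 without those arrays, 604 with quantile normalization repeated, 584 with cyclic loess, 298 among probe sets with a strain mean of at least 6, 314 with an intensity trend, 829 with array weights and 0 with beta-actin 3′ minus 5′ signal as a covariate. With 1 array left out they ran from 26 (without BKS replicate 2) to 272 (without NZO replicate 1), with 36 without BKS replicate 3, 104 without NZO replicate 2 and 35 without NZO replicate 3. Of 102 pathway genes 2 passed as reported, 7 with the block, 7 without the number 1 arrays, 1 with repeated quantile normalization, 4 with the filter on dim probe sets, 4 with the trend, 7 with array weights, 0 with the beta-actin covariate, and 0 to 4 with 1 array left out.

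Signs turned as follows, and the cause was not tested. Without the number 1 arrays, Igfbp1 was at 1.65, Igfbp4 1423756_s_at, 1437405_a_at, 1423757_x_at and 1437406_x_at at 0.0745, 0.155, 0.159 and 0.301, Pck1 at 0.0101 and Ccn2 at 0.029. The same 4 Igfbp4 probe sets were at 0.110, 0.0994, 0.132 and 0.235 with repeated quantile normalization, 0.205, 0.217, 0.218 and 0.324 with cyclic loess, and 0.383, 0.258, 0.284 and 0.429 with the beta-actin covariate. Array weights gave 0.837 for Igfbp1 and 0.0218, 0.0533 and 0.155 for the last 3 of them. Values of the covariate did not overlap between the strains, so it cannot be cleanly told apart from strain. It gave -0.362 for Igfbp5 1422313_a_at, -0.167 for Igfbp6, 0.525 for Igfbp7 1437804_at, -0.586 for Igf1r and 0.00356 for Igfals. The covariate also gave -0.212 for Irs2, 0.325 for Pck1, -0.184 for Prss2 and 0.787 for Ccn2. It moved Igfbp1 to -2.99. Median centring gave -0.00388 for Igfbp6. With 1 array left out the differences ran from -0.853 to 0.852 for Igfbp1, -0.126 to 0.563 for Igfbp3 1423062_at, -0.426 to 0.226, -0.376 to 0.242, -0.412 to 0.275 and -0.292 to 0.410 for the 4 Igfbp4 probe sets, -0.0822 to 0.511 for Igfbp4 1421992_a_at, -0.136 to 0.277 for Igfbp6, -0.378 to 0.0166 for Igfbp7 1437804_at, -0.0717 to 0.370 for Igf1, -0.0173 to 0.628 for Igf1r, -0.984 to 0.183 for Pck1 and -0.570 to 0.111 for Ccn2. Igfbp2 was below 0 in every alternative, from -2.12 to -0.80.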
